A study of Homo sapiens with 4 samples.

Results

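The 9 genes described here encode complement components and the membrane proteins that restrain complement: CD46, CD55, CD59, C3, CFB, CFI, C1R, C1S and SERPING1. They were chosen by name from the 55764 gene names of the table, and all 9 were listed in it. They were compared in TE5, a human oesophageal squamous cell carcinoma line, by bulk RNA sequencing of 4 libraries. In 2 libraries the cells had been infected with a lentiviral vector that expresses human ETS1, a transcription factor, from the CMV promoter. The 2 control libraries came from cells given the vector backbone, with WT as their labelled genotype. The labels do not say whether clones were picked or whether the libraries come from separate infections or cultures. The p-values therefore measure the spread between these libraries, which may be technical.

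Complement is a cascade of proteases that marks surfaces for clearance and lysis. In the classical pathway the proteases C1r and C1s start the cascade, and the C1 inhibitor, encoded by SERPING1, inactivates them. All routes converge on C3, and factor B (CFB) pairs with activated C3 to form the alternative pathway's own C3-cleaving enzyme. Nucleated cells protect themselves with membrane regulators. CD46 is a cofactor with which factor I (CFI) cuts deposited C3b and C4b, CD55 speeds the decay of the C3-cleaving enzymes, and CD59 blocks assembly of the membrane attack pore. Most complement proteins in plasma come from the liver, while carcinoma cells are known to make some components and to carry the membrane regulators.

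Values are FPKM, the authors' fragment values scaled by gene length and by library depth. The read counts behind them were recovered as whole numbers (see the processing notes) and totalled 40501091 and 44277272 in the controls and 57498889 and 56730126 in the ETS1 libraries, which were 1.35 times deeper on average. ETS1 itself had 0.491 and 0.509 FPKM in the controls (142 and 161 reads) and 1.84 and 1.87 FPKM in the ETS1 libraries (756 reads in each), in the direction of the labels. No squamous marker of 6 had a mean of at least 1 FPKM. The squamous genes KRT5, KRT14, KRT6A and TP63 stood at 0 FPKM in the control libraries and reached at most 0.0165 FPKM in an ETS1 library, while SFN had 0.451 and 0.584 FPKM in the controls against 1.24 and 1.07 FPKM. KRT13 went the other way, from 0.0936 and 0.0934 FPKM to 0.0659 and 0.0486 FPKM. Of 5 simple epithelial markers, 3 had a mean of at least 1 FPKM: KRT8, KRT18 and EPCAM. KRT8 (3.87 to 6.59 FPKM over the 4 libraries) was higher in both ETS1 libraries than in both controls. KRT18 (8.29 to 10.5 FPKM) and EPCAM (0.915 to 1.37 FPKM) were lower in both. CDH1, with a mean under 1 FPKM, was higher in both ETS1 libraries. The keratin KRT19 had at most 0.0224 FPKM in any library. The squamous identity of the cells thus rests on the labels.

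The 9 genes fell into a high and a low class. The membrane regulators CD46, CD55 and CD59 lay between 11.9 and 20.4 FPKM in every library. The other 6 genes lay between 0.0116 and 1.22 FPKM. The number of genes passing the filter of the main test, a mean of at least 1 FPKM over the 4 libraries, was 3 of 9, and these were the membrane regulators. For them limma was run on log2(FPKM + 1) over 14306 genes. The remaining 6 genes were also tested with limma-voom on the recovered reads, over 20012 genes with a mean of at least 10 reads. That test was chosen after seeing the data. It reached all 9 genes, but CFB passed its filter only through the controls (a mean of 20 reads there and 8 in the ETS1 libraries). CFB is therefore left out of the counts of calls and described by its values.

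By limma on FPKM, 2 of the 3 membrane regulators were called higher in the ETS1 libraries (CD46 and CD59) and 1 was called lower (CD55), at an adjusted p under 0.05. Over all genes tested the same call was made for 30.7% higher and 28.4% lower; calls in either direction were thus frequent among all genes. The median log2(FPKM + 1) change of the 3 was 0.13, against 0.016 over all genes tested. By limma-voom on reads, 6 of the 8 genes other than CFB were called higher and 1 lower, beside 27.4% higher and 26% lower over all genes. The FPKM of both ETS1 libraries lay above both controls for 6 of the 8 genes other than CFB and below both for 1 (CD55), beside 41.9% and 34.8% of the genes with a mean of at least 10 reads. In bulk RNA, fewer cells that express a gene and less RNA per cell cannot be told apart.

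**Figure D1:**
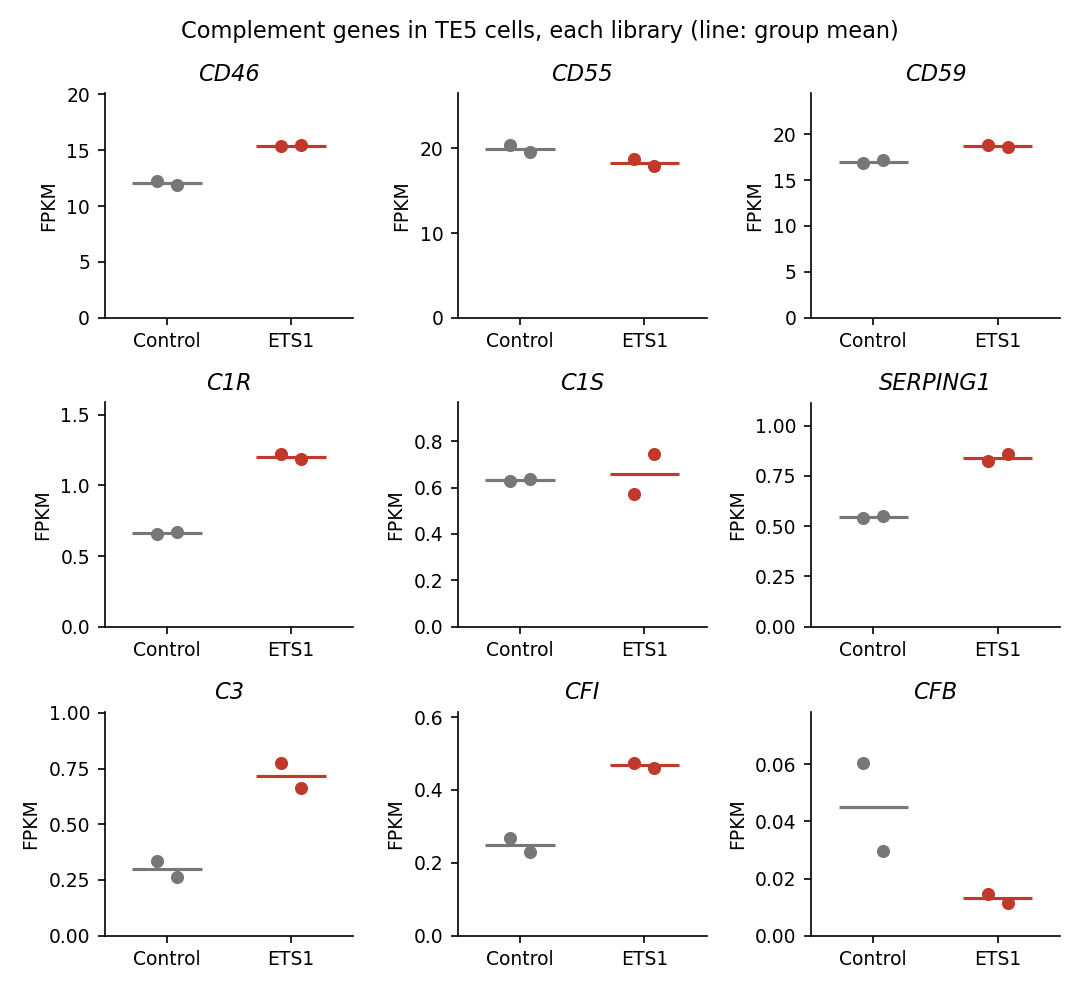
FPKM of the 9 complement genes (y axis, from 0, with its own scale in each panel) in the 2 control libraries (grey points) and the 2 ETS1 libraries (red points), with a line at each group mean. The groups overlap for C1S alone; CD55 and CFB are lower and the other 6 genes are higher in the ETS1 libraries.

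The promoters of the membrane regulators and of CFB are printed because ETS1 binds DNA at a GGAA core. A further reason is that CD46 and CD55, in the same gene cluster on chromosome 1, changed in opposite directions. The call of CD55 depended on the fit. RefSeq windows (GRCh38.p14) were found for 6 of the 9 genes (CD46, CD55, CD59, CFB, CFI and C1R), and the 250 bases before the first listed start were searched on both strands. The motifs were the ETS site CCGGAAGT, its core CCGGAA (which the longer site contains), the STAT site TTCNNNGAA, the interferon element GAAANNGAA and the NF-kappaB consensus. Capitals mark a match on either strand. The windows are chr1:207751788-207752037 (plus strand) for CD46, chr1:207321428-207321677 (plus strand) for CD55, chr11:33736480-33736729 (minus strand) for CD59 and chr6:31945845-31946094 (plus strand) for CFB.
CD46: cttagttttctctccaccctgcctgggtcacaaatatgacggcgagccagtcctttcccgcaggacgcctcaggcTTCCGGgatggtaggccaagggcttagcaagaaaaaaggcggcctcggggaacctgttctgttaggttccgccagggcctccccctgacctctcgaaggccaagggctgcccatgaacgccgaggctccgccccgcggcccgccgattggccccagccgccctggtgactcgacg
CD55: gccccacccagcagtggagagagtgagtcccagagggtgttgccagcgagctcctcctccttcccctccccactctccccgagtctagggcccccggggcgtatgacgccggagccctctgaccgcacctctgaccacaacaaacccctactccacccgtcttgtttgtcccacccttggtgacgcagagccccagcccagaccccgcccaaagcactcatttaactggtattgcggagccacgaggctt
CD59: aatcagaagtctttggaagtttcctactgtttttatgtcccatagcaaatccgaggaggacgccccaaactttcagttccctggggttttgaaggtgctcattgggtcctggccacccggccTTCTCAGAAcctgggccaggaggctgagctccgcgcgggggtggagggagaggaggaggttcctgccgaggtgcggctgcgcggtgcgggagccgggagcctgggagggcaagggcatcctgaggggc
CFB: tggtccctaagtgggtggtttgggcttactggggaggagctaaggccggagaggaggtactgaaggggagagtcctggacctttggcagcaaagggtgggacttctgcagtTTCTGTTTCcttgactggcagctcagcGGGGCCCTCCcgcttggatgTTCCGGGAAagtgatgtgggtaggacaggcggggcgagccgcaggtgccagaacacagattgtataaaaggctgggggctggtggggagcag

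CD46 held 1 ETS core, read on the minus strand, at positions -175 to -170 before the start. CD59 held 1 STAT site, at -128 to -120. CFB held the densest set: an ETS core on the minus strand at -92 to -87 that overlaps a STAT site at -92 to -84, an NF-kappaB match at -112 to -103 and an interferon element on the minus strand at -139 to -131. The windows of CD55, CFI and C1R held none of the 5 motifs. The full ETS site was in none of the 6 windows. CD46 and C1R have 2 listed windows each and CD59 has 4, and the later ones were not searched. Over 27305 first listed windows of the same length, 3.64% held the full ETS site, 14.8% its core, 6.78% the STAT site, 7.06% the interferon element and 6.6% the NF-kappaB consensus. These matches describe letters in a window and no binding was measured.

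The membrane regulators were examined first. CD46 (ENSG00000117335, chromosome 1, 207752057 to 207795513, plus strand, GENCODE 29 on GRCh38) had 12.2 and 11.9 FPKM in the controls and 15.4 and 15.4 FPKM in the ETS1 libraries. The reads behind these values numbered 4304 and 4593 (controls) and 7695 and 7622 (ETS1). Both ETS1 libraries stood well above both controls, and the group means were 12.1 ± 0.206 and 15.4 ± 0.0428 FPKM (SD, n = 2 each). The rise was 0.33 on the log2(FPKM + 1) scale (SE 0.030; adjusted p by limma 0.00134). It passed under every alternative run, and limma-voom on reads gave a log2 change of 0.33 with a 95% interval of 0.26 to 0.40. With a trend of the change on gene length removed the rise was smaller, 0.21 (limma adjusted p 0.00488).

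CD55 (ENSG00000196352, chromosome 1, 207321376 to 207386804, plus strand) was the gene of the 9 with the highest FPKM in both controls. It had 20.4 and 19.5 FPKM there and 18.7 and 17.9 FPKM in the ETS1 libraries. The reads behind these values numbered 3682 and 3860 (controls) and 4799 and 4542 (ETS1). The groups did not overlap, but the lowest control and the highest ETS1 value were close to one another. The means were 19.96 ± 0.592 and 18.3 ± 0.539 FPKM (SD, n = 2 each), a log2(FPKM + 1) change of -0.12 (SE 0.038; adjusted p by limma 0.0472). This call was near the threshold and was lost with no filter on low values (adjusted p 0.114), under quantile normalization (0.164), without control library 1 (0.141), without ETS1 library 1 (0.0823) and without ETS1 library 2 (0.231). The authors' deposited table puts CD55 at -0.14 (log2; adjusted p 0.0181).

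CD59 (ENSG00000085063, chromosome 11, 33703010 to 33736491, minus strand) had 16.8 and 17.2 FPKM in the controls and 18.8 and 18.6 FPKM in the ETS1 libraries. The reads behind these values numbered 3358 and 3752 (controls) and 5332 and 5205 (ETS1). Both ETS1 values exceeded both controls by more than the replicates differed. The means were 16.99 ± 0.262 and 18.7 ± 0.141 FPKM (SD, n = 2 each), and the log2(FPKM + 1) change was 0.13 (SE 0.029; adjusted p by limma 0.0162). It did not pass without ETS1 library 1 (adjusted p 0.103), without ETS1 library 2 (0.0820), with the length trend removed (0.0527), or in the authors' deposited table (log2 fold change 0.11, adjusted p 0.0575). CD59 is thus a small rise whose call depended on the fit.

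Ratios within a library do not depend on its depth, and they set the 3 regulators against each other. CD46 stood at 0.600 and 0.610 of CD55 in the controls and at 0.822 and 0.861 in the ETS1 libraries. CD59 stood at 0.825 and 0.879 of CD55 in the controls and at 1.005 and 1.037 in the ETS1 libraries. CD46 over CD59 was 0.727 and 0.694 in the controls and 0.818 and 0.830 in the ETS1 libraries. In none of these ratios did the groups overlap, and each had p = 0.333 in a two-sided exact permutation test, the minimum for 2 libraries against 2. The order of the levels was CD55, CD59, CD46 in both controls. In the ETS1 libraries CD46 stayed the lowest. CD59 was slightly above CD55 within each ETS1 library (18.80 against 18.71 and 18.60 against 17.95 FPKM), while their ranges over both libraries overlapped. Summed over the 3 genes, FPKM was 49.4 and 48.6 in the controls and 52.9 and 51.99 in the ETS1 libraries, a log2 difference of 0.097 in the sum beside 0.48 in the ratio of CD46 to CD55. FPKM divides by a gene length that was inferred as 0.999 of the GENCODE 29 exon bases for CD46, 0.755 for CD55 and 0.476 for CD59, so levels between these genes depend on the authors' gene models, while the same gene between libraries does not.

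**Figure D2:**
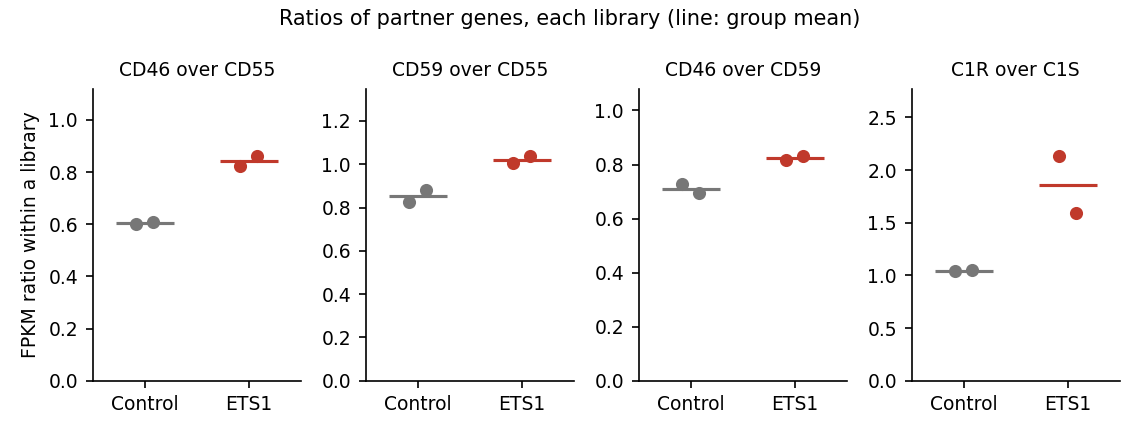
Ratio of FPKM between partner genes within each library (y axis, from 0, with its own scale in each panel) for controls (grey) and ETS1 libraries (red), with a line at each group mean. CD46 over CD55 goes from 0.600 and 0.610 to 0.822 and 0.861, and C1R over C1S from 1.04 and 1.05 to 2.13 and 1.59.

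CD46 and CD55 lie in the cluster of complement regulator genes on the long arm of chromosome 1, with CD55 starting 0.431 Mb before CD46. Within 5 Mb of CD46, 53 protein-coding genes were tested, these 2 among them. Of these 53, 23 were called higher and 10 lower by limma, beside 30.7% higher and 28.4% lower over all genes tested. Their median log2(FPKM + 1) change was 0.095, against 0.016 over all tested genes. With the median of the surrounding 5 Mb removed from each gene, CD46 was at 0.24 (limma adjusted p 0.000459) and CD55 at -0.22 (limma adjusted p 0.00123). Of other genes in the cluster, CR1 was at most at 0.00408 FPKM in any library and C4BPA at 0.0215 FPKM. CR2 lay between 0.377 and 0.511 FPKM, and its groups overlapped.

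**Figure D3:**
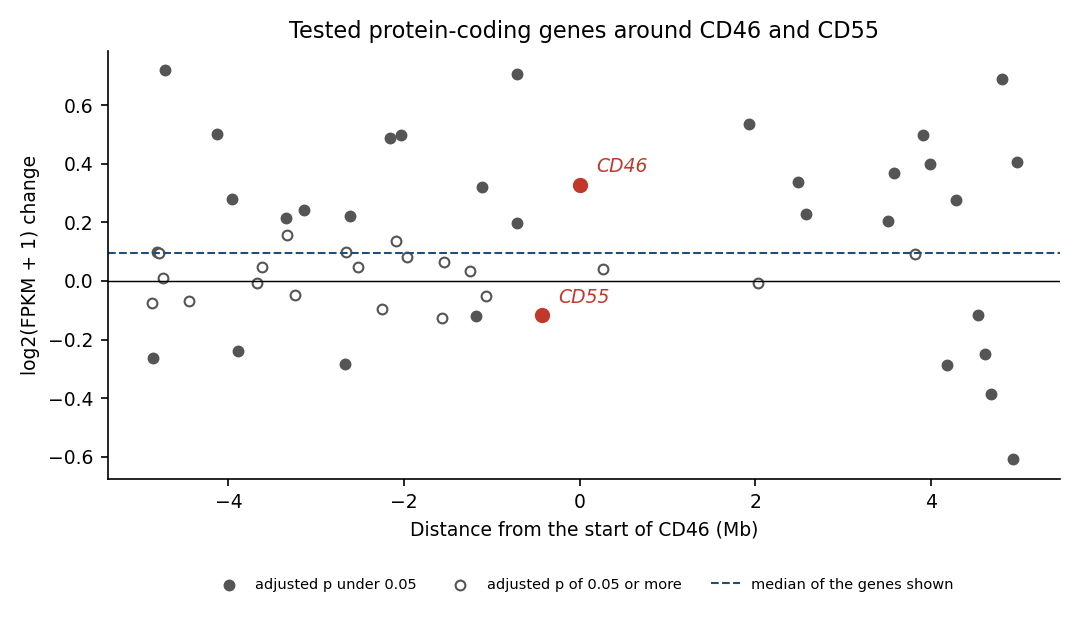
Change on the log2(FPKM + 1) scale (y axis) of the 53 tested protein-coding genes within 5 Mb of CD46, by distance of their start from that of CD46 (x axis, Mb); filled points have a limma adjusted p under 0.05 and the dashed line is their median, 0.095. CD46 (0.33) lies above that line and CD55 (-0.12) below it.

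The classical pathway proteases were low in these cells, and C1R rose while C1S was not called in either direction. C1R (ENSG00000159403, chromosome 12, 7080199 to 7092607, minus strand) had 0.653 and 0.670 FPKM in the controls and 1.22 and 1.18 FPKM in the ETS1 libraries. The read counts were 124 and 139 against 329 and 315. Both ETS1 libraries were far above both controls, a ratio of mean FPKM of 1.82, and the replicates of each group nearly coincided. Limma-voom gave a log2 change of 0.83 with a 95% interval of 0.57 to 1.10 and an adjusted p of 5.43e-05, and the change was 0.81 to 0.86 with any 1 library left out. The authors' deposited table gives 0.76 with an adjusted p of 5.69e-05.

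C1S (ENSG00000182326, chromosome 12, 6988259 to 7071032, plus strand) lies beside C1R on the opposite strand. It had 0.627 and 0.638 FPKM in the controls and 0.573 and 0.744 FPKM in the ETS1 libraries. The reads behind these values numbered 162 and 180 (controls) and 210 and 269 (ETS1). The ETS1 libraries straddled the controls, and C1S alone of the 9 genes overlapped between groups. The log2 change by limma-voom was 0.019 (adjusted p 0.921), with a 95% interval of -0.29 to 0.32 whose upper end is a 1.25-fold rise. The ratio of C1R to C1S was 1.04 and 1.05 in the controls and 2.13 and 1.59 in the ETS1 libraries. It did not overlap between groups (two-sided exact permutation p = 0.333, again the minimum), and the ETS1 libraries differed in it.

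SERPING1 (ENSG00000149131, chromosome 11, 57597387 to 57614853, plus strand), which encodes the inhibitor of both proteases, had 0.543 and 0.553 FPKM in the controls and 0.823 and 0.858 FPKM in the ETS1 libraries. These rest on 79 and 88 reads against 170 and 175 reads. The groups were clearly apart, with a ratio of mean FPKM of 1.53. Limma-voom called it higher, with a log2 change of 0.59, a 95% interval of 0.25 to 0.92 and an adjusted p of 0.00560. It missed the threshold in limma on FPKM with no filter (adjusted p 0.0604) and, by limma-voom, without control library 1 (0.0522). The authors' deposited table gives 0.43 with an adjusted p of 0.0380.

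C1RL, a relative of C1R beside it on the same strand, shares 672 exon bases with it in GENCODE 29, or 11.4% of the exon bases of C1R. It had 0.237 and 0.294 FPKM in the controls and 0.629 and 0.550 FPKM in the ETS1 libraries (limma-voom log2 change 1.12, adjusted p 0.000206). How reads in shared bases were assigned is not given in the sources used here, and the part of this overlap in the rise of C1R was not tested. Within 5 Mb of C1R the 58 tested protein-coding genes had a median log2(FPKM + 1) change of 0.12. C1R, C1S and SERPING1 are also made by fibroblasts. Of the 6 fibroblast markers examined, COL1A1 alone had a mean of at least 1 FPKM (2.17 and 2.06 in the controls, 2.81 and 2.88 in the ETS1 libraries). LUM had 0.00822 and 0.0376 FPKM in the controls and 0.168 and 0.141 FPKM in the ETS1 libraries. PDGFRB had 0.0312 and 0.00953 against 0.0440 and 0.0570 FPKM, and PDGFRA 0.0738 and 0.0652 against 0.0771 and 0.0836 FPKM. These 3 and COL1A1 were higher in both ETS1 libraries, in the direction of C1R and SERPING1, while DCN and COL1A2 were at most at 0.0122 FPKM in any library. The summed FPKM of the 6 was 2.30 and 2.18 in the controls and 3.10 and 3.16 in the ETS1 libraries, and its part in these results was not tested.

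C3 (ENSG00000125730, chromosome 19, 6677704 to 6730562, minus strand) had 0.337 and 0.264 FPKM in the controls and 0.774 and 0.664 FPKM in the ETS1 libraries. The reads behind these values numbered 113 and 97 (controls) and 369 and 312 (ETS1). Both ETS1 libraries lay well above both controls. The ratio of mean FPKM was 2.39, the highest upward ratio among the 9 genes. Limma-voom gave a log2 change of 1.24 with a 95% interval of 0.91 to 1.58 and an adjusted p of 1.10e-05, and the change was 1.06 to 1.41 with any 1 library left out. In limma on FPKM with no filter C3 passed with an adjusted p of 0.0343. The authors' deposited table gives 1.17 with an adjusted p of 2.94e-08, and C3 entered that table, which holds genes with a mean of at least 0.5 FPKM, through the ETS1 libraries. Within 5 Mb of C3 the median log2(FPKM + 1) change of 178 tested protein-coding genes was -0.077.

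CFI (ENSG00000205403, chromosome 4, 109740694 to 109802179, minus strand), the protease that cuts C3b with CD46 as cofactor, had 0.269 and 0.228 FPKM in the controls and 0.473 and 0.461 FPKM in the ETS1 libraries. The read counts were 42 and 39 against 105 and 101. The ETS1 libraries nearly coincided and stood above both controls, with a ratio of mean FPKM of 1.88. Limma-voom gave a log2 change of 0.89 with a 95% interval of 0.42 to 1.35 and an adjusted p of 0.00309, but without control library 2 the adjusted p was 0.0595. Limma on FPKM with no filter gave an adjusted p of 0.0407. CFI shares 32% of its exon bases with AC126283.2 on the same strand, and the part of that overlap was not tested. The median of 29 tested protein-coding genes within 5 Mb was also above 0, at 0.20 on the log2(FPKM + 1) scale.

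CFB (ENSG00000243649, chromosome 6, 31945650 to 31952084, plus strand) was the gene of the 9 with the fewest reads. It had 0.0604 and 0.0297 FPKM in the controls and 0.0147 and 0.0116 FPKM in the ETS1 libraries. The reads behind these values numbered 26 and 14 (controls) and 9 and 7 (ETS1). The ETS1 values were below both controls, but the controls differed from each other by more than the lower control differed from the ETS1 libraries. The mean FPKM of the controls was 3.42 times that of the ETS1 libraries. Limma on FPKM with no filter did not call CFB (adjusted p 0.257), on a scale that compresses changes at such low FPKM. CFB shares 45% of its exon bases in GENCODE 29 with AL645922.1, a gene listed at 0 in every library, and its inferred length was 2.13 times its exon bases, so its level is uncertain.

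With the same caution on lengths, the order of the low genes by mean FPKM in the controls was C1R (0.662 ± 0.0117), C1S (0.633 ± 0.00725), SERPING1 (0.548 ± 0.00726), C3 (0.301 ± 0.0511), CFI (0.248 ± 0.0286) and CFB (0.0451 ± 0.0217; SD, n = 2 each). C3 and CFI overlapped there, and the other neighbours in that order did not. In the ETS1 libraries the order was C1R (1.20 ± 0.0255), SERPING1 (0.840 ± 0.0252), C3 (0.719 ± 0.0783), C1S (0.658 ± 0.121), CFI (0.467 ± 0.00838) and CFB (0.0132 ± 0.00220; SD, n = 2 each), with C3 and C1S overlapping. Summed over these 6 genes, FPKM was 2.49 and 2.38 in the controls and 3.88 and 3.92 in the ETS1 libraries. The gene of the 9 with the largest absolute change on the log2(FPKM + 1) scale was C1R (0.41). Among tested genes, the profiles over the 4 libraries nearest to it were those of TDRD7, MYO1C and PCSK4, with Euclidean distances of 0.00799, 0.0116 and 0.0137 after centring each gene on the log2(FPKM + 1) scale. All 3 had higher FPKM than C1R (TDRD7 5.38 and 5.44 in the controls, 7.59 and 7.39 in the ETS1 libraries). That scale understates changes of low genes, so a near profile on it need not mean a like fold change.

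The rest of the complement system was read from a list of 50 further genes, of which 11 passed the FPKM filter. Of those 11, CFHR3 passed only through the ETS1 libraries and SUSD4 only through the controls. Of the other 9, limma called 3 higher and 3 lower, beside 30.7% higher and 28.4% lower over all genes tested. Their median log2(FPKM + 1) change was -0.074, against 0.016 over all genes tested. SUSD4, a membrane protein that binds C1q, fell from 2.66 and 2.71 FPKM to 0.900 and 0.806 FPKM (523 and 583 reads against 251 and 222; limma-voom log2 change -1.68, adjusted p 1.00e-08). CFD, which encodes factor D, the protease that cuts factor B, fell from 11.7 and 11.0 FPKM to 6.11 and 6.82 FPKM (-0.73, limma adjusted p 0.00104). C1QBP, a mainly mitochondrial protein that also binds C1q, fell from 169 and 171 to 137 and 133 FPKM (-0.33, limma adjusted p 0.00109), and the collectin COLEC11 changed by -0.17 (limma adjusted p 0.0490). The authors' deposited table does not call COLEC11 (-0.21, adjusted p 0.181).

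Called higher were CALR (0.36 on the log2(FPKM + 1) scale, limma adjusted p 0.00117), a chaperone that can act as a C1q receptor, COLEC12, a scavenger receptor (0.25, adjusted p 0.00619), and CLU, a fluid-phase inhibitor of the lytic pore (0.18, adjusted p 0.0387), beside a median of -0.37 within 5 Mb of CLU. The authors' deposited table does not call CLU (adjusted p 0.0560), CFHR3 (0.0983) or C5AR1 (0.143). CFHR3 had 0.949 and 0.868 FPKM in the controls and 1.33 and 1.16 FPKM in the ETS1 libraries (limma-voom log2 change 0.43, adjusted p 0.0224). Not called by limma were the terminal components C5 (-0.029, limma adjusted p 0.666) and C8G (-0.074, adjusted p 0.348) and the anaphylatoxin receptor C5AR1 (-0.20, adjusted p 0.145; by limma-voom -0.38, adjusted p 0.0458). The C1q genes C1QA and C1QB were listed at 0 in all 4 libraries, and C1QC had at most 0.0170 FPKM. The terminal components C6, C7, C8A, C8B and C9 were at most at 0.0168 FPKM in any library.

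By limma-voom on reads, 25 of the 50 genes could be tested, of which 4 passed the filter on reads only through the ETS1 libraries. Of the other 21, 7 were called higher and 6 lower, beside 27.4% higher and 26% lower over all genes tested. Their median log2 change was 0.022, against 0.018 over all genes tested. The genes named in the rest of this paragraph were chosen after their values were seen. C2, which encodes the classical counterpart of factor B and overlaps CFB by 23 exon bases and AL645922.1 by 32.9% of its own, was counted at 108 and 107 reads (controls) against 67 and 61 (limma-voom log2 change -1.20, adjusted p 8.72e-05), the same direction as CFB. The integrin genes ITGAM (0.87, limma-voom adjusted p 0.00170) and ITGB2 (0.72, adjusted p 0.0104), whose products form a complement receptor, rose. A further integrin gene, ITGAX, had 10 and 5 reads in the control libraries against 31 and 36 in the ETS1 libraries. It passed the filter only through the ETS1 libraries. The highest FPKM of these integrin genes in any library was 0.522, for ITGAM. The leukocyte gene PTPRC had at most 0.0117 FPKM, and the part of other cell types in these rises was not tested. C4A (43 and 64 against 85 and 74 reads) was not called (limma-voom adjusted p 0.656). C4B had 1 read in both controls together and 55 in both ETS1 libraries together. It passed the filter on reads only through the ETS1 libraries, so its counts are given without a test. C4A and C4B are near-identical copies that can share reads, so the values of both are uncertain.

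**Figure D4:**
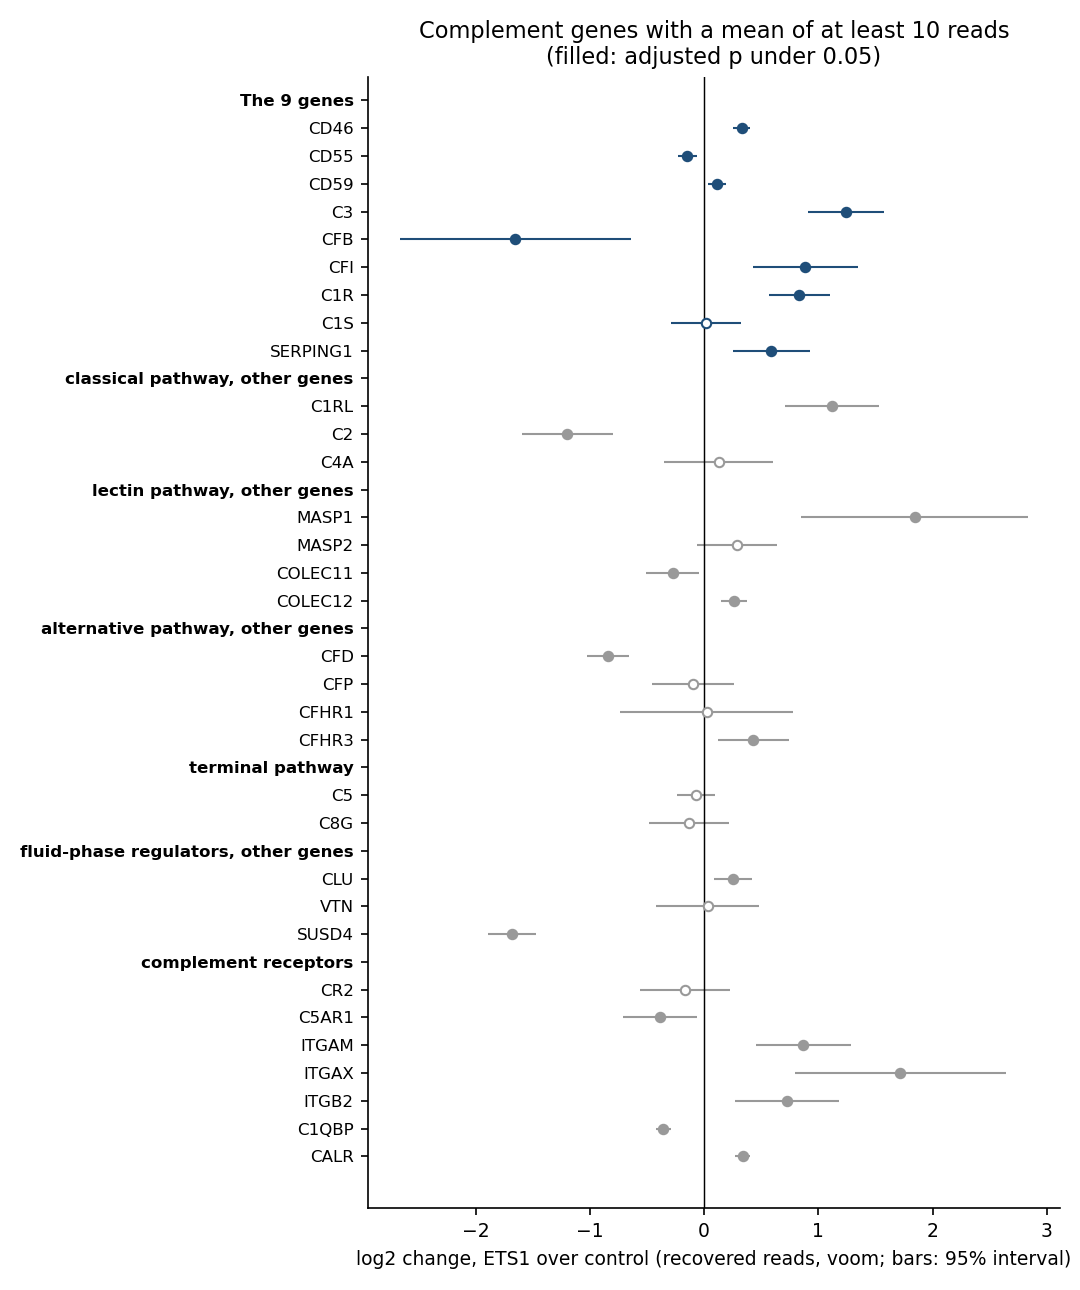
Log2 change between ETS1 and control libraries by limma-voom on recovered reads (x axis, with 95% intervals) for the 9 genes (blue) and the other complement genes with a mean of at least 10 reads (grey), with C4B and 1 further gene not drawn; filled points have an adjusted p under 0.05. CFB, MASP1 and ITGAX passed the filter on reads only through their higher group, so their fill is no support. C3 (1.24) is the highest and CFB (-1.65) the lowest of the 9 genes, and SUSD4 (-1.68) is the lowest of the others.

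CD55 and CD59 are held in the membrane by a glycosylphosphatidylinositol (GPI) anchor, while CD46 spans it. Of 28 genes of GPI anchor synthesis and attachment, 27 passed the FPKM filter, and limma called 10 higher and 12 lower, beside 30.7% and 28.4% of all genes tested. The median log2(FPKM + 1) change of the 27 was -0.011. DPM3 (-0.72, limma adjusted p 0.000436) and DPM2 (-0.63, adjusted p 0.000524), subunits of the enzyme that makes dolichol-phosphate mannose for GPI anchors and for glycosylation, fell. PGAP1, which removes a fatty acid from the new anchor, rose by 0.54 (adjusted p 0.00307). Tested genes within 5 Mb of DPM2 had a median of -0.33. Of 10 transcription factors known to act on complement genes, 8 passed the filter, with 5 called higher and 0 lower by limma (5 and 0 by limma-voom) and a median of 0.17, beside 30.7% higher, 28.4% lower and a median of 0.016 over all genes tested by limma. IRF1 rose by 0.36 (limma adjusted p 0.00837) and STAT3 by 0.23 (limma adjusted p 0.00836). Acute-phase proteins, which liver cells secrete along with complement, did not pass the FPKM filter in any of 17 cases, and the highest of them, HPX, had a mean of 0.504 FPKM. The 4 hepatocyte markers summed to 1.21 and 1.40 FPKM in the controls and 0.687 and 0.779 FPKM in the ETS1 libraries, and their part in the levels of C3 and the other components was not tested. Of 7 leukocyte markers none had a mean of at least 1 FPKM, and their summed FPKM was 0.643 and 0.685 in the controls and 0.670 and 0.539 in the ETS1 libraries.

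Set beside all genes, the authors' deposited table holds 7 members, of which C3 entered only through the ETS1 libraries. Of the other 6, it calls 3 higher (CD46, C1R and SERPING1) and 1 lower (CD55) at its adjusted p under 0.05. Over its genes with an adjusted p the shares were 25.3% higher and 25.9% lower. CD46 and C1R were called higher in the authors' deposited table, by limma-voom and by limma with no filter. C3, CFI and CD59 were called higher by limma-voom and by limma with no filter. The deposited table does not call CD59 (adjusted p 0.0575) and does not hold CFI.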

How the data were processed

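RNA of 4 TE5 libraries (2 with ETS1 overexpression, 2 with empty vector) was analysed. FPKM per gene was computed and deposited by the authors. The tools the authors used were HISAT2, HTSeq and DESeq2, with the build hg38/GRCh38, per the submitters' processing notes, without versions or settings; annotation and use of strand are not given in the sources used here. The authors' deposited comparison table of 16652 genes holds, per the file headers, a mean normalized count (a signal averaged over libraries), a log2 fold change with its standard error, and a p-value with its adjusted p-value. Its fold change divided by its standard error does not give its p-value (for SERPING1 0.0953 against the listed 0.0187), so the fold changes may be shrunk.

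The main test was limma 3.58.1 (R 4.3.3) on log2(FPKM + 1) over 14306 genes (mean FPKM 1 or more), group term only, intensity trend, two-sided, with Benjamini-Hochberg adjustment and a threshold of 0.05. It has 2 residual degrees of freedom per gene, so p-values rest on a variance shared across genes. Fold changes on this scale understate the change of low genes. Reads were recovered from FPKM, the authors' mean normalized count and the median-of-ratios rule. Of the values in the comparison table, 99.5% fell within 0.05 of a whole number. Outside it, including CFB and CFI, the smallest whole-number solution was used, which matched for 92.1% of 4051 genes checked. Those reads went into limma-voom (mean of at least 10 reads), an alternative chosen after seeing the data, as were removal of a length trend and of the median within 5 Mb.

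The members and lists were chosen with earlier results of these data known. The text names the 9 members, further complement genes that pass the FPKM filter, and up to 3 genes of each other list with the largest change. Some genes these rules would name are not reported here. Positions come from GENCODE 29 by gene name and promoters from RefSeq. The limma step was tested on simulated data. Other alternatives tried were a pseudocount of 0.1, a mean FPKM of at least 5, no filter, median-ratio scaling, quantile normalization, a replicate block, the authors' deposited comparison and each library left out. Figures used Python 3.11.15 and matplotlib 3.10.9.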

Additional observations from a re-analysis of the deposited data

How the results depend on the processing

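CD46 kept its direction and its call under every alternative run. A fit without 1 library assumes that the lone library left in its group varies like the other group, so passing such a fit says little about stability. With 2 libraries a group the variance rests mostly on other genes, and depth limits CFB (7 to 26 reads, past the filter on reads only through the controls) and CFI (39 to 105 reads). Genes called higher numbered 4394, 2562 with a mean FPKM of at least 5 (fewer genes tested), and 2845 (without ETS1 library 2) to 3962 with 1 library left out. By limma-voom, which tests more genes, they numbered 5487, and 4234 to 4658 with 1 library left out. Members called higher numbered 2 in the main test, 5 with no filter, 4 in the authors' deposited table (C3 included, which entered it only through the ETS1 libraries), 1 with the length trend removed (the cause was not tested), and 1 to 2 with 1 library left out; by limma-voom, which reached 9 members and not 3, they numbered 6, and 4 to 5 with 1 library left out. Members called lower numbered 1 in the main test, 0 with no filter or quantile normalization, and 0 to 1 with 1 library left out; by limma-voom they numbered 2, CFB included, and 0 to 2 with 1 library left out. Members tested numbered 3 in the main test, 9 with no filter, 7 in the authors' deposited table and 9 by limma-voom. Over all genes, calls higher numbered 4394 of 14306, 3622 of 35055, 3966 of 15683 and 5487 of 20012 in that order. Calls lower over all genes numbered 4057, 3238, 4060 and 5194. With the replicate block, limma called 3712 genes and 2 members higher and 0 members lower (CD55 adjusted p 0.0555). Limma-voom with that block called 6 members higher and 2 lower, CFB included. Deviations of libraries with the same number correlated at -0.046, so the numbers are not shown to pair samples. C1S changed sign by limma-voom without ETS1 library 2 (-0.17, adjusted p 0.500) and was at 0.21 without ETS1 library 1. CD59 missed the threshold by limma-voom with any 1 library left out (adjusted p 0.0551 to 0.158), and CD55 without control library 1 (0.0814) or ETS1 library 2 (0.118).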
